A study of Homo sapiens with 30 samples.

Results

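The guanylate-binding protein genes GBP1, GBP2, GBP3, GBP4 and GBP5 were examined in hCMEC/D3, a human endothelial line that was immortalised from brain microvessels, whose endothelium forms the blood-brain barrier. The members were the rows of the gene count table that carry these symbols, 5 of 63138 genes, and all 5 had counts. RNA was sequenced from 30 libraries in 10 groups of 3. In the 15 direct libraries the cells received a stimulus for 12 h: TNF at 25 ng/mL, IL1b (interleukin-1 beta) at 10 ng/mL, C5a (a complement fragment) at 50 ng/mL or Epinephrine at 200 nM, and the Control group received serum-free medium. In the 15 vesicle libraries the same line was given vesicles (enriched extracellular vesicles, not purified further) that came from supernatants of cells under those treatments, and the groups are called EV-TNF, EV-IL1b, EV-C5a, EV-Epinephrine and EV-Control. EV-Control is therefore vesicles of cells kept in serum-free medium, not cells without vesicles. The amount of vesicles is not given in the sources used here. The study works with 1 cell line in culture, the labels put all libraries in batch 1, and nothing says that the 3 libraries of a group came from separate cultures, so p-values measure only the spread between these libraries, which may be technical.

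Guanylate-binding proteins are large GTPases of the dynamin superfamily and are among the genes most strongly switched on by interferon gamma, in part through the transcription factor IRF1. TNF and interleukin-1 act mainly through NF-kappaB, and can raise the same genes directly or through IRF1 and interferon beta. The proteins bind GTP, assemble into oligomers on the membranes of intracellular bacteria, parasites and their vacuoles, and take part in cell-autonomous defence and inflammasome activation. GBP1 coats cytosolic Gram-negative bacteria and recruits caspase-4. GBP1, GBP2 and GBP5 end in a CaaX box that receives a prenyl lipid and anchors them in membranes, whereas GBP3 and GBP4 lack one. In endothelial cells GBP1 is a known marker of cells exposed to inflammatory cytokines.

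The 5 genes lie in a cluster on the minus strand of chromosome 1, where the related gene GBP7 comes after GBP2 and before GBP4. Coordinates are from GENCODE 29 on GRCh38 and identifiers are as in the count table. GBP3 (ENSG00000117226) spans chr1:89006666-89022894, GBP1 (ENSG00000117228) chr1:89052319-89065360, GBP2 (ENSG00000162645) chr1:89106132-89150456, GBP4 (ENSG00000162654) chr1:89181148-89198932 and GBP5 (ENSG00000154451) chr1:89258950-89272804. Of the members, RefSeq's promoter table for GRCh38.p14 holds GBP1, GBP3 and GBP4. The 250 bases upstream of their RefSeq start were searched on both strands for the interferon-stimulated response element core (ISRE, GAAA, 2 free bases and GAAA again), the gamma-activated site (GAS, TTCNNNGAA) and the NF-kappaB consensus, which do not overlap in the matches found. These stretches are shown because the members were raised by the same stimuli and to different extents. Each is given 5′ to 3′ on the gene's own strand, with the match in capitals:
GBP1 ISRE core, chr1:89065316-89065345, minus strand: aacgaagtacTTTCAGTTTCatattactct
GBP3 GAS, chr1:89022867-89022891, minus strand: actgagtcacTTCCTTGAAagaagt
GBP4 NF-kappaB consensus, chr1:89198968-89198997, minus strand: ttgataaacaGGAAAATCCCcaacagtcaa

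The GBP1 match (bases -127 to -118 from the RefSeq start) is the ISRE core read from the opposite strand, and it lies inside the GENCODE gene, whose longest transcript begins further upstream. The GBP3 match lies at bases -15 to -7, also inside the GENCODE gene. The GBP4 match lies at bases -45 to -36 and is, like that of GBP1, read from the opposite strand. Each of the 3 genes held 1 of the 3 motifs in its window. GBP7, which had at most 2 counts in a library, also held an NF-kappaB match (bases -87 to -78). Among 35116 promoter windows of the same length, 3.02% held the ISRE core, 6.57% the GAS and 9.96% the NF-kappaB consensus, so a match describes these letters, and binding was not measured here.

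Libraries held 16643961 to 22112326 counts in genes, and 14340 to 15196 genes had at least 10 counts. All 10 endothelial markers, among them CDH5, PECAM1 and VWF, had a median above 1 CPM (counts scaled to library size with TMM factors over all 30 libraries) in every group, and their sum ranged from 683 to 1164 CPM over the libraries. The 8 immune markers summed to 1.5 to 3.93 CPM, and AIF1, CD3E and LYZ had a median of 0. In the pericyte and smooth muscle list, 5 of 6 markers had a median above 1 CPM in every group. Among them were CSPG4 (median 336 CPM), PDGFRB (73.3 CPM), RGS5 (8.65 CPM) and ACTA2 (2.47 CPM). In the epithelial list KRT18 (262 CPM) and KRT8 (19.1 CPM) were present, with EPCAM at a median of 0. Of 4 astrocyte markers, GFAP had a median of 3.64 CPM and at most 5.67 CPM (108 counts), ALDH1L1 had at most 18 counts, SLC1A2 at most 3 and AQP4 none. Replicate 1 of EV-Control stood apart from the other EV-Control libraries in GBP2 and in IRF1, and replicate 3 of Epinephrine was the highest of its group in GBP1, GBP2 and GBP3. Several values for the members that change with either library are given with and without it. In bulk RNA, more RNA per cell and more expressing cells cannot be told apart.

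GBP1 made up most of the family's transcripts in every group. Per kilobase of annotated exon, the Control level was 21.1 ± 0.368 CPM per kb (SD, n = 3, as in all groups) for GBP1, 3.92 ± 0.480 for GBP2, 1.15 ± 0.118 for GBP3, 0.919 ± 0.137 for GBP4 and 0.0155 ± 0.00998 for GBP5. GBP1 held 77.9% of the summed level per kb in Control and between 76.6% (TNF) and 83.4% (EV-IL1b) in the other groups. The share of GBP4 was 3.38% in Control and 14.8% in TNF, while that of GBP2 was 14.4% in Control and 6.06% in TNF. TNF thus changed the order of the members per kb from GBP1, GBP2, GBP3, GBP4, GBP5 to GBP1, GBP4, GBP2, GBP3, GBP5 in these means.

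**Figure D1:**
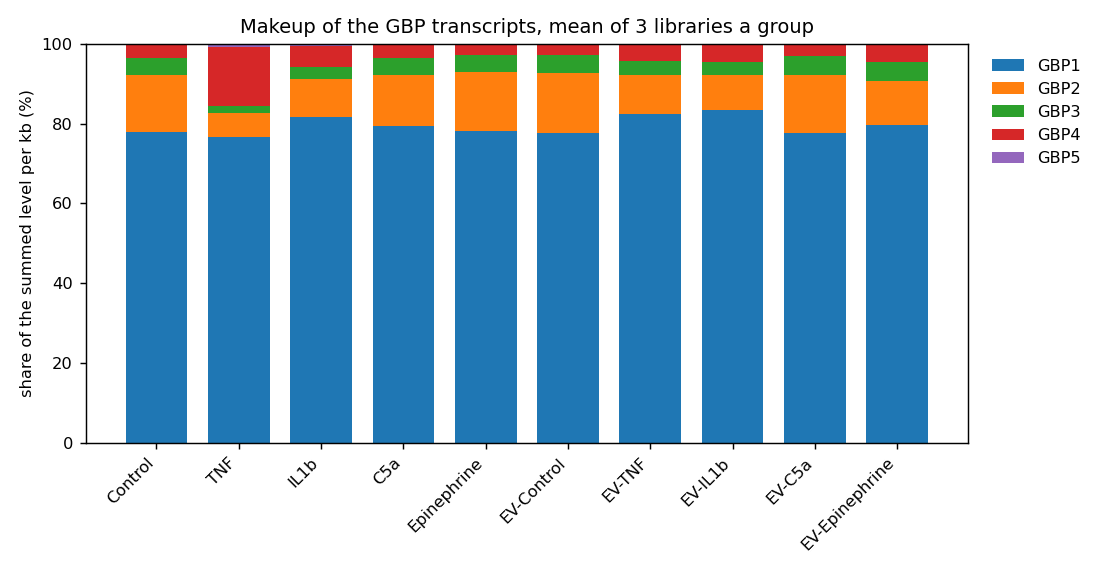
Share of the summed GBP level per kb of exon (%), mean of 3 libraries in each of 10 groups, stacked by gene. GBP1 takes 76.6% to 83.4% in every bar, and GBP4 widens from 3.38% in Control to 14.8% in TNF.

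TNF raised all 5 members. With edgeR's quasi-likelihood test and Benjamini-Hochberg adjustment over 15908 genes, 5 of 5 members passed an adjusted p of 0.05 as higher, in a comparison where 52.7% of all genes tested passed and 27.5% were higher. Scaling by library totals alone moved the median of all genes from -0.01 to -0.29 on the log2 scale and the split of calls from 4369 higher and 4019 lower to 2283 higher and 7783 lower, and all 5 members were still called higher.

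GBP1, the most abundant member, stood at 107, 104 and 106 CPM in the 3 Control libraries and at 1154, 1175 and 1165 CPM in the 3 TNF libraries. Its groups lay far apart, and the fold change was 11.0 (95% interval 9.99 to 12.2; log2 3.46, SE 0.069, edgeR adjusted p = 9.0e-23). GBP4 stood at 4.87, 5.50 and 6.53 CPM in Control and at 277, 277 and 272 CPM in TNF. That is a fold of 48.9 (43.5 to 55.1; log2 5.61, SE 0.084). GBP5, which promotes NLRP3 inflammasome assembly, had 1, 4 and 2 counts in the Control libraries, so its Control level of 0.126 ± 0.081 CPM rests on 7 counts in all. In TNF it had 287, 298 and 325 counts, or 19.2, 16.0 and 18.8 CPM. The ratio of its summed counts, scaled for library size, was 142 with an exact 95% interval of 68.4 to 353 that covers counting error only.

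GBP2 and GBP3 rose less. The Control libraries held GBP2 at 21.8, 24.2 and 27.8 CPM and the TNF libraries at 114, 117 and 116 CPM, a fold of 4.71 (4.22 to 5.27). GBP3, a member without a CaaX box, was at 5.50, 4.86 and 4.5 CPM in Control and at 27.5, 22.6 and 22.6 CPM in TNF, a fold of 4.87 (4.03 to 5.88). In each of the 5 genes the lowest TNF library was above the highest Control library, which also held for 30.7% of all genes tested. Ordered by fold, the members ran GBP5, GBP4, GBP1, then GBP3 and GBP2, whose intervals overlap.

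**Figure D2:**
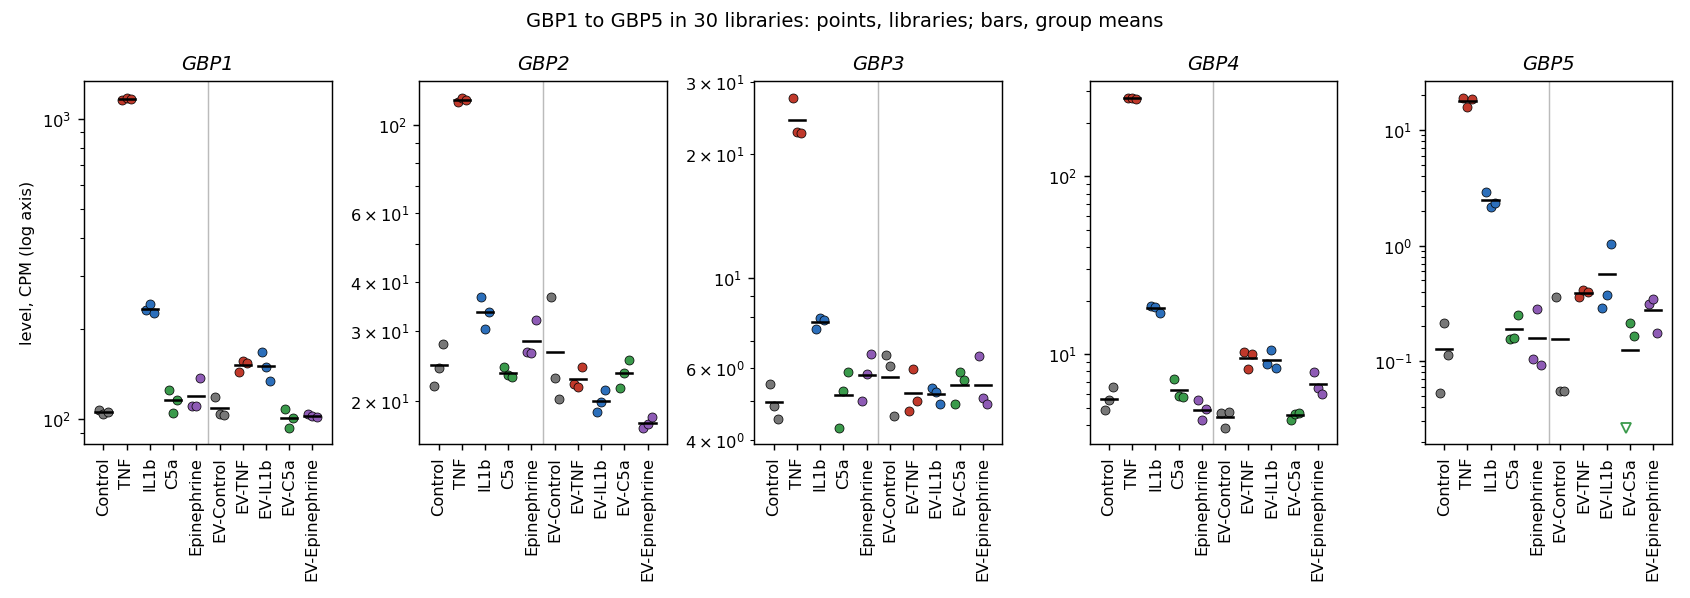
Level of each GBP gene (CPM, log axis) in the 30 libraries, with points for libraries, bars for group means and the vesicle groups to the right of the grey line; the open triangle is a library with no GBP5 count. The 3 TNF libraries are the highest in every panel and the 3 IL1b libraries come next in GBP1, GBP3, GBP4 and GBP5, whereas in GBP2 EV-Control replicate 1, at 36.7 CPM, is as high as the highest IL1b library, at 36.6 CPM.

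IL1b also raised all 5, and by less than TNF. All 5 members passed as higher against Control, with 46.6% of genes called and 24% called higher in that comparison; with library totals alone the calls were split 2919 higher and 4637 lower in place of 3824 and 3595, and the members were all still higher. GBP1 was 231, 242 and 225 CPM, a fold of 2.22 (2.02 to 2.44) over Control. GBP4 reached 18.7, 18.4 and 17.1 CPM, a fold of 3.24 (2.81 to 3.73). The IL1b libraries held 57, 41 and 44 counts of GBP5, or 2.94, 2.17 and 2.34 CPM, and the ratio of summed counts was 19.7 (9.31 to 49.8). GBP2 was 36.6, 30.4 and 33.6 CPM and GBP3 7.48, 7.98 and 7.88 CPM. Both had folds of 1.37 (1.22 to 1.55) and 1.58 (1.28 to 1.94). In all 5 genes the IL1b libraries lay above the Control libraries, as in 28% of genes tested.

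Compared directly at these doses, which differ in mass and in the agent, every member was lower in IL1b than in TNF, where 41.4% of genes tested were called and 21.4% were lower. With library totals alone that split was 6504 higher and 2041 lower against 3168 and 3412, and the 5 members were still lower. The log2 difference, IL1b minus TNF, was -3.92 (SE 0.071) for GBP4, -2.84 (SE 0.18) for GBP5, -2.31 (SE 0.065) for GBP1, -1.78 (SE 0.076) for GBP2 and -1.63 (SE 0.13) for GBP3. The gap was thus widest for GBP4 in these estimates, which stood at 275 ± 3.13 CPM in TNF and 18.1 ± 0.840 CPM in IL1b. All 5 genes had every IL1b library below every TNF library, which held for 27% of genes tested.

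C5a called no member, while 22.6% of all genes passed in that comparison. GBP1 was 125, 105 and 116 CPM and overlapped Control, with a log2 fold change of 0.14 (95% interval -0.0018 to 0.27, adjusted p = 0.156 by edgeR). It passed without replicate 2 of C5a (log2 0.20, adjusted p = 0.0317) and in a fit of these 2 groups alone (adjusted p = 0.0299). The intervals of the other members were -0.23 to 0.12 for GBP2, -0.25 to 0.38 for GBP3, -0.069 to 0.42 for GBP4 and -0.77 to 1.90 for GBP5, whose 11 counts in C5a against 7 in Control leave a wide range.

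Epinephrine called 1 member, GBP1, in a comparison with 25.2% of genes called and 13.5% higher. GBP1 was 111, 110 and 137 CPM against 104 to 107 CPM in Control. The groups did not overlap, as in 16.4% of genes in this direction, and replicate 3 of Epinephrine was the highest. The log2 fold change was 0.19 (SE 0.066, edgeR adjusted p = 0.0409), and without that library it was 0.08 (adjusted p = 0.337). Over the other alternatives, too, the call was mostly lost, for example with replicate 1 of Control left out (adjusted p = 0.0681) or with RLE factors (adjusted p = 0.0524). GBP2, at 26.5, 26.4 and 32.0 CPM, overlapped Control and missed the threshold (log2 0.22, adjusted p = 0.0557), and passed without replicate 3 of Control (0.31, adjusted p = 0.0105). GBP3, GBP4 and GBP5 did not pass, with values of 5.78 ± 0.770, 4.89 ± 0.633 and 0.160 ± 0.107 CPM.

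Vesicles from TNF-treated cells raised GBP1 and GBP4, and the other members did not pass. Of 4 members that met the low-count filter, GBP1 and GBP4 were called higher, where 13.3% of 15918 genes were called and 5.9% were higher. EV-Control held GBP4 at 4.68, 3.86 and 4.76 CPM (78, 70 and 87 counts) and EV-TNF at 10.3, 8.29 and 10.0 CPM (203, 162 and 176 counts). The groups did not overlap, as in 13.2% of genes in this direction, and the fold was 2.14 (1.74 to 2.65; log2 1.10, SE 0.15, edgeR adjusted p = 1.4e-07). For GBP1, EV-Control was 119, 104 and 103 CPM and EV-TNF 144, 155 and 153 CPM, again without overlap, a fold of 1.39 (1.24 to 1.56; edgeR adjusted p = 0.000984). Both calls were made in each fit that left out 1 library.

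GBP2 was 36.7, 22.8 and 20.2 CPM in EV-Control and 22.1, 21.7 and 24.4 CPM in EV-TNF. The spread within EV-Control was larger than the difference between the groups, and the log2 fold change of -0.22 (95% interval -0.62 to 0.17, edgeR adjusted p = 0.504) became 0.08 without replicate 1 of EV-Control. GBP3 was 5.72 ± 0.989 CPM in EV-Control and 5.24 ± 0.662 in EV-TNF, with an interval of -0.45 to 0.21. GBP5 fell under the low-count filter of the vesicle fit. It had 6, 1 and 1 counts in EV-Control and 7, 8 and 7 in EV-TNF, a ratio of 2.57 (exact 95% interval 1.10 to 6.67, counting error only). In fits that kept it, it was not called for EV-TNF (log2 1.31, adjusted p = 0.526 with no filter; 1.32, adjusted p = 0.19 in the fit of all libraries).

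Vesicles from IL1b-treated cells raised GBP1 and GBP4 as well, in a comparison that uses the same EV-Control libraries. GBP1 (168, 149 and 134 CPM) and GBP4 (8.78, 10.5 and 8.38 CPM) were the members called higher, where 14.6% of genes were called and 6.49% were higher. Both lay above all EV-Control libraries, as did 14.1% of genes, and their folds over EV-Control were 1.38 (1.23 to 1.55) and 2.08 (1.68 to 2.57). GBP2, at 18.7, 19.8 and 21.3 CPM, had a log2 fold change of -0.41 (95% interval -0.81 to -0.01, edgeR adjusted p = 0.181). That difference depended on the libraries and the filter, since it was -0.11 without replicate 1 of EV-Control, while with no low-count filter GBP2 was called lower (adjusted p = 0.0042), and so it was without replicate 3 of EV-Control (-0.57, adjusted p = 0.00421). GBP3 (5.18 ± 0.243 CPM) did not pass. GBP5 had 5, 7 and 18 counts in EV-IL1b, a ratio of 3.72 (1.67 to 9.39) to EV-Control over summed counts. It was called in the fit of all 30 libraries (log2 1.85, adjusted p = 0.026) and not with an unfiltered vesicle fit (1.83, adjusted p = 0.182), and the third library holds 18 of its 30 counts.

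Vesicles from epinephrine-treated cells moved GBP4 and GBP2 in opposite directions. Here 19.7% of genes were called, 9.12% higher and 10.5% lower, and with library totals alone the calls were 1975 higher and 1305 lower in place of 1452 and 1679. GBP4 was 8.0, 6.44 and 6.01 CPM (154, 113 and 103 counts), above all EV-Control libraries (as in 16.8% of genes), a fold of 1.54 (1.24 to 1.92; log2 0.63, edgeR adjusted p = 0.00255). Without replicate 1 of EV-Epinephrine the log2 fold change was 0.49 (adjusted p = 0.0507). GBP2 was 17.1, 17.4 and 18.2 CPM, the lowest values of this gene in the series and below the 20.2 CPM of the lowest EV-Control library (17.3% of genes lay apart in this direction). Its log2 fold change was -0.59 (SE 0.18, edgeR adjusted p = 0.0452). Leaving out replicate 1 of EV-Control brought it to -0.29 with an adjusted p of 0.0318, and leaving out replicate 1, 2 or 3 of EV-Epinephrine ended the call (adjusted p = 0.125, 0.113 and 0.096). GBP1 (103 ± 1.25 CPM) and GBP3 (5.47 ± 0.843 CPM) did not pass, and GBP5 had 15 counts against 8 in EV-Control.

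EV-C5a called no member, in a comparison where 0.0503% of all genes passed by edgeR. GBP1 was 108, 93.4 and 101 CPM and GBP4 4.29, 4.64 and 4.65 CPM, both overlapping EV-Control. The 95% intervals of the log2 fold change were -0.28 to 0.07 for GBP1, -0.56 to 0.22 for GBP2, -0.39 to 0.27 for GBP3 and -0.30 to 0.36 for GBP4, and none of the 4 had an unadjusted p under 0.05.

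Vesicles of unstimulated cells, compared with medium alone, called no member while 21.9% of 16691 genes passed. GBP4 was lower in all 3 EV-Control libraries (3.86 to 4.76 CPM) than in the 3 Control libraries (4.87 to 6.53 CPM), a separation that 17.2% of genes showed, and its log2 fold change of -0.34 missed the threshold (edgeR adjusted p = 0.0689). It passed with library totals alone (-0.38, adjusted p = 0.0441) and without replicate 1 of Control (-0.43, adjusted p = 0.0374). The 95% interval of the log2 fold change was -0.14 to 0.21 for GBP1, -0.20 to 0.41 for GBP2, -0.12 to 0.52 for GBP3 and -1.34 to 1.83 for GBP5. IRF1, a transcription factor upstream of the family, was higher in EV-Control, at 192, 108 and 92.9 CPM against 41.2, 39.3 and 47.1 CPM in Control (log2 1.62, SE 0.20, edgeR adjusted p = 2.3e-06).

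**Figure D3:**
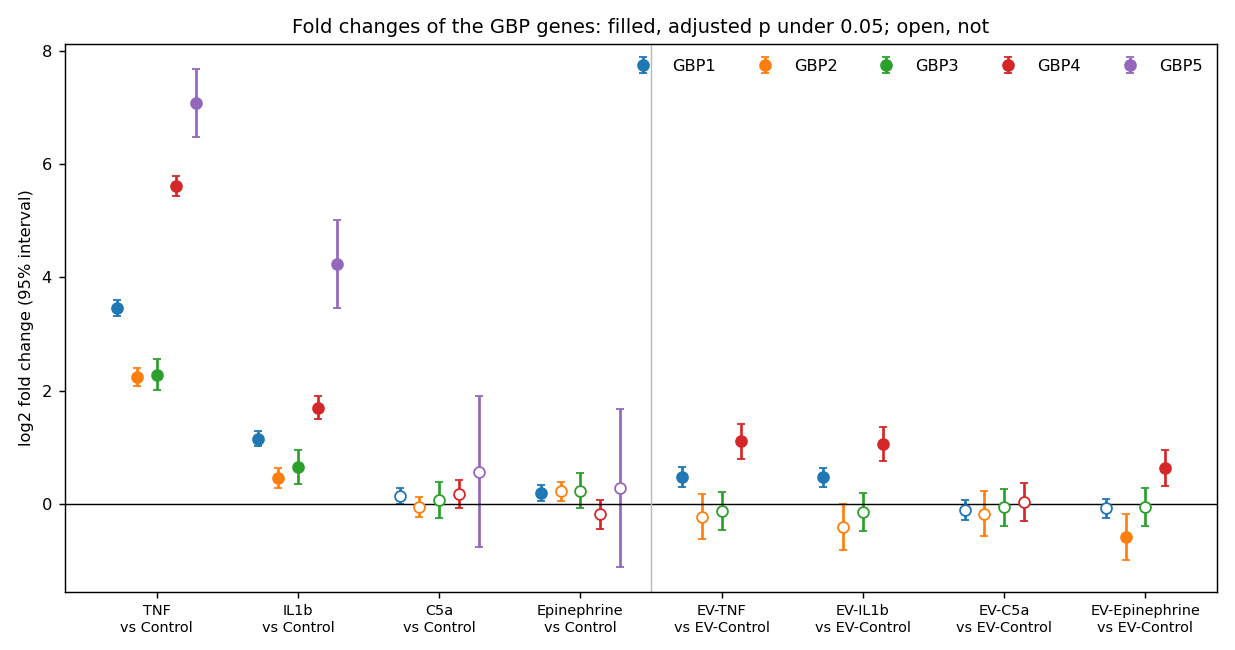
Log2 fold change of each GBP gene with its 95% interval, for 4 stimuli against Control (left of the grey line) and for the vesicles against EV-Control (right), where GBP5 was under the low-count filter. Filled points passed an adjusted p of 0.05; TNF and IL1b have 5 filled points each, EV-TNF and EV-IL1b have GBP1 and GBP4 filled.

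Across the 10 groups the order of the levels was alike at the top and differed below it. For GBP1 the means ran from TNF (1165 CPM) and IL1b (233 CPM) to EV-TNF (151 ± 6.22 CPM) and EV-IL1b (150 ± 16.8 CPM), which do not differ beyond their spread, and the libraries of the other 6 groups lay between 93.4 and 137 CPM, the highest of them being replicate 3 of Epinephrine, above the lowest EV-IL1b library (134 CPM). GBP4 had the same leading groups, with EV-TNF at 9.53 ± 1.09 and EV-IL1b at 9.23 ± 1.14 CPM, then EV-Epinephrine at 6.82 ± 1.05 CPM. The EV-Epinephrine libraries at 6.44 and 6.01 CPM lay below the highest Control library (6.53 CPM) and the highest C5a library (7.29 CPM). GBP3 separated in TNF (24.2 ± 2.84 CPM) and IL1b (7.78 ± 0.266 CPM) alone, and the other 24 libraries lay between 4.29 and 6.52 CPM. In GBP2, TNF (116 ± 1.5 CPM) led, IL1b (33.5 ± 3.12 CPM) and Epinephrine (28.3 ± 3.17 CPM) were neighbours that overlap, and EV-Epinephrine (17.6 ± 0.567 CPM) closed the order.

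The vesicle response was set against the direct response to the same stimulus by an interaction term in a fit of all 30 libraries, as the log2 fold change over EV-Control minus that over Control. For TNF all 5 members were lower in the vesicle arm, where 44.7% of genes were called and 23.4% were lower, from -2.41 for GBP3 to -5.76 for GBP5. For IL1b all 5 were lower as well, where 35.2% of genes were called and 18.3% were lower, between -0.63 for GBP4 and -2.38 for GBP5. The IL1b difference for GBP5 was lost without replicate 1 of EV-Control (-1.03, edgeR adjusted p = 0.645) and without several other libraries. For C5a none of the 5 was called, against 11.9% of genes. For epinephrine, where 24.2% of genes were called (11.7% higher, 12.5% lower), GBP2 was lower (-0.80, edgeR adjusted p = 0.00628) and GBP4 higher (0.82, adjusted p = 0.000576) in the vesicle arm, and GBP1, GBP3 and GBP5 did not pass. Without replicate 1 of EV-Control the GBP2 value was -0.51. The GBP2 call held whichever single library was left out (edgeR adjusted p of up to 0.0203). It was lost when groups outside the comparison were kept out of the fit. Over all settings run, with edgeR or DESeq2, its adjusted p reached 0.0752.

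Counts in gene lists were set against the share of all tested genes called in the same comparison. These shares were 27.5% higher and 25.3% lower for TNF, 24% and 22.6% for IL1b, 11.8% and 10.8% for C5a, and 13.5% and 11.8% for Epinephrine. For the vesicles they were 5.9% and 7.42% for EV-TNF, 6.49% and 8.14% for EV-IL1b, and 9.12% and 10.5% for EV-Epinephrine, with 0.0503% in either direction for EV-C5a.

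The genes that carry interferon signals moved with the family after the direct cytokines and in both directions after vesicles. Among 20 genes for interferon receptors and signalling, chosen with earlier results of these data known, TNF raised 19 and lowered 0 of the 19 tested, with a median log2 fold change of 1.39 beside -0.01 over all genes (17 higher with library totals alone). IL1b raised 15 and lowered 0 (13 and 1 with library totals alone). TNF raised IRF1, the transcription factor that binds ISRE-like sites, from 42.5 ± 4.11 to 383 ± 23.0 CPM (log2 3.17, SE 0.15), USP18, a brake on interferon signalling, by 2.67 and SOCS1, an inhibitor of JAK kinases, by 2.34. The interferon gamma receptor chain IFNGR1 rose by 0.85. With IL1b the rises were 0.82 for IRF1, 0.30 for IFNGR1, 1.77 for SOCS3, 1.42 for USP18 and 1.08 for IRF7.

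After vesicles, IRF1 was lower than in EV-Control in the groups where GBP4 was higher. EV-TNF raised 6 and lowered 4 of the 20 genes of this list (5 and 4 without replicate 1 of EV-Control), and EV-IL1b raised 6 and lowered 3 (the same counts without that library). IRF1 stood at 192, 108 and 92.9 CPM in EV-Control, at 64.0, 68.6 and 67.8 CPM in EV-TNF, at 71.1, 65.5 and 64.4 CPM in EV-IL1b and at 50.2, 48.8 and 51.4 CPM in EV-Epinephrine. All 9 libraries lay below the lowest EV-Control library, a separation that 13.9%, 14.4% and 17.3% of genes tested showed in the 3 comparisons. The same 9 libraries lay above the Control libraries, which were at 41.2, 39.3 and 47.1 CPM. Over EV-Control the log2 fold changes were -0.97, -0.97 and -1.38 (edgeR adjusted p = 0.0159, 0.0155 and 0.00152). Without replicate 1 of EV-Control they were -0.59, -0.58 and -1.0, all still called. SOCS1 was lower in each of these 3 groups (-1.58, -1.13 and -1.22), though in EV-IL1b it was not called without replicate 1 of EV-Control (-0.87, edgeR adjusted p = 0.0872). IFNGR1 was lower in EV-TNF and EV-Epinephrine (-0.45 and -0.53) and missed the threshold in EV-IL1b (-0.42, edgeR adjusted p = 0.0503). Without that library it was called lower in all 3, at -0.25, -0.33 and -0.22. USP18 rose by 0.81 in EV-TNF, IRF9 by 0.79 in EV-IL1b, and SOCS3 fell by 1.15 on the log2 scale in EV-Epinephrine.

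**Figure D4:**
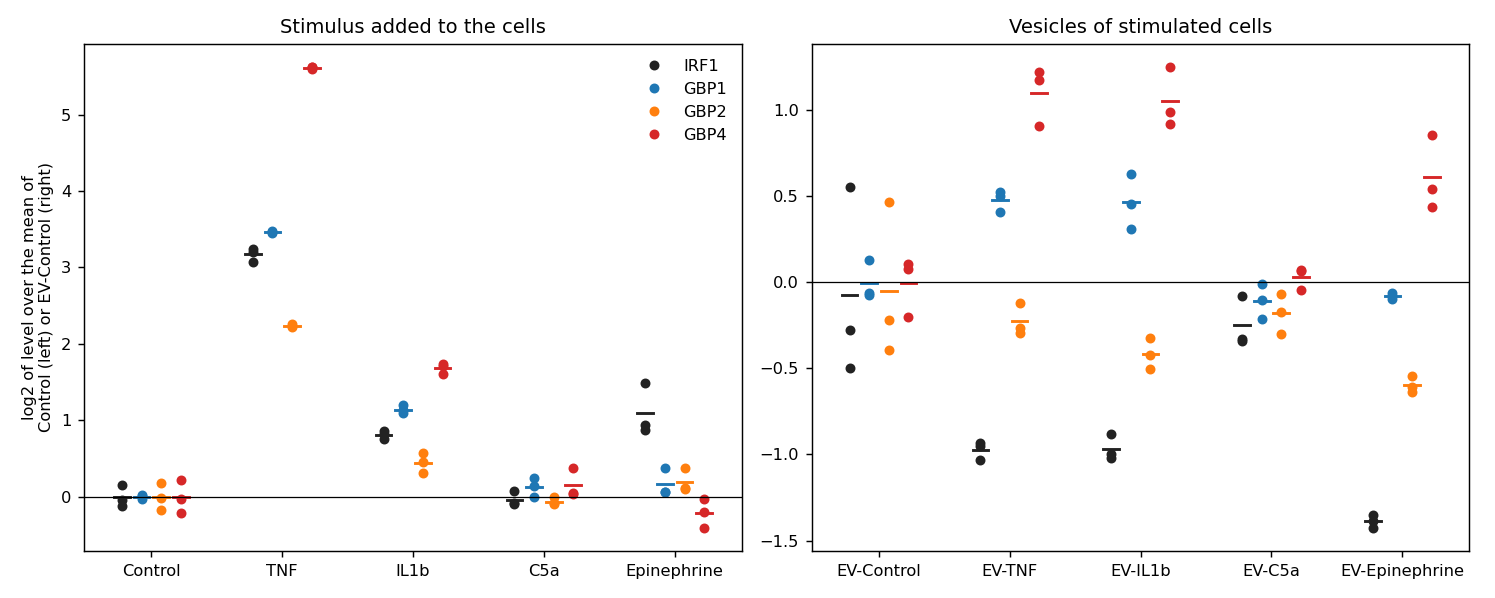
Log2 of the level of IRF1, GBP1, GBP2 and GBP4 in each library over the mean of Control (left) or EV-Control (right); points are libraries, short bars their means, and the 2 panels have different axes. IRF1 is above 0 in the TNF, IL1b and Epinephrine libraries and below the EV-Control libraries in EV-TNF, EV-IL1b and EV-Epinephrine, where GBP4 is above them.

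Epinephrine added directly raised IRF1 from 42.5 ± 4.11 to 92.5 ± 22.9 CPM (log2 1.14), while USP18 fell by 0.42 on the log2 scale and IRF7 by 0.34. In that comparison the signalling list had 4 genes higher and 4 lower (3 and 4 without replicate 3 of Epinephrine), and IFNGR1 was higher by 0.28. C5a raised USP18 (0.30) and JAK2 (0.29) of this list, and IRF1 did not pass (-0.03). Of the 12 other interferon targets tested, Epinephrine lowered 5 and raised 0, with NLRC5 and TAP1 at -0.37 and PSMB10 at -0.27 (3 lower of 13 without replicate 3 of Epinephrine), and C5a raised CD274 (0.51) and TAP2 (0.20) and lowered NLRC5 (-0.20). EV-C5a called 0 genes of the signalling list by edgeR, and EV-Epinephrine 5 higher and 7 lower (4 and 5 without replicate 1 of EV-Control).

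Of 9 interferon genes, IFNG, IFNK, IFNA1 and IFNA2 had no count in any library, which allows up to 3 counts each, or at most 0.200 CPM in a library. IFNB1, the type I interferon beta, met the filter of the direct fit and rose with TNF from 0.128 ± 0.116 to 1.4 ± 0.517 CPM (log2 3.40, SE 0.68), with 31 counts at most in a library. It did not pass with IL1b, C5a or Epinephrine. In the vesicle fit IFNB1 was under the filter, and the 1 interferon gene tested, IFNE, did not pass in any of the 4 comparisons (0.313 ± 0.226 CPM in EV-Control).

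A list of related GTPases, which also holds RNF213, an ATPase and ubiquitin ligase that coats bacteria, had more genes higher than lower with both cytokines. TNF raised 5 and lowered 0 of 8 tested (2 lower with library totals alone), with a median log2 fold change of 1.48, among them the antiviral MX2 by 3.46 and MX1 by 2.43 on the log2 scale, and the pseudogene GBP1P1 from 0.125 ± 0.060 to 4.21 ± 1.12 CPM (4.98). IL1b raised 6, among them MX2 (2.23), MX1 (1.48) and RNF213 (0.88). C5a raised 3 and lowered 0 of the 8, led by IRGQ (0.38), and Epinephrine raised 3 and lowered 2, with MX1 at -0.61, ATL1 at -0.53 and IRGQ at 0.39. Both vesicle groups raised MX2 (0.99 in EV-TNF, 0.90 in EV-IL1b), MX1 (0.82 and 0.71) and RNF213 (0.41 and 0.48), and lowered 1 and 2 of 7 genes, or 0 and 1 of 8 without replicate 1 of EV-Control. GBP6 had at most 1 count and GBP7 at most 2 counts in a library. GBP1P1 shares sequence with GBP1, and 6.6% of GBP1's stretches of 50 bases also occur there.

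Among pathogen-defence partners, TNF raised 9 and lowered 1 of 12 tested, with a median of 0.84, and IL1b raised 8 and lowered 3, with a median of 0.38. The 3 of 12 lower with IL1b are close to the 22.6% of all genes. CASP4, which binds bacterial lipopolysaccharide on GBP-coated bacteria, rose by 0.88 with TNF (101 ± 2.01 to 186 ± 1.43 CPM) and by 0.42 with IL1b. The apolipoprotein L genes APOL6 and APOL2 rose by 2.13 and 2.08 with TNF and NLRP3 by 2.04; with IL1b the values were 1.00 for APOL6, 0.89 for NLRP3 and -0.82 for PIM1, a kinase that restrains GBP1. EV-TNF raised 4 and lowered 2 (1 lower without replicate 1 of EV-Control), EV-IL1b raised 4 and lowered 3 (2 lower without that library), and EV-Epinephrine raised 4 and lowered 4. APOL2 rose by 0.48, 0.37 and 0.38 and PIM1 fell by 0.56, 0.55 and 1.30 on the log2 scale in these 3 groups. CASP4 was not called in EV-TNF (-0.10) and was lower in EV-IL1b (-0.16) and EV-Epinephrine (-0.19).

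Other targets of interferon gamma and IRF1 rose in 11 of 12 tested with TNF and in 10 with IL1b (9 with library totals alone), with none lower. CXCL10, an interferon-induced chemokine, went from 0.601 ± 0.260 to 299 ± 13.6 CPM with TNF (log2 8.96) and to 6.73 ± 1.35 CPM with IL1b (3.49), CXCL11 rose by 6.91 and 1.93, the tryptophan-degrading enzyme IDO1 by 4.83 with TNF and the tRNA synthetase WARS1 by 0.95 with IL1b. With vesicles, 7 of 12 rose in EV-TNF and 7 in EV-IL1b, and 3 in EV-Epinephrine (5 with library totals alone), none of the 12 being lower. CXCL11 rose by 1.78, 1.85 and 1.39, TAP1, a peptide transporter of antigen presentation, by 0.40, 0.38 and 0.18, and the checkpoint ligand CD274 by 0.39 and 0.54 in EV-TNF and EV-IL1b.

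Genes that attach and trim prenyl lipids, which GBP1, GBP2 and GBP5 need for membrane anchoring, were examined as a list of 8. TNF called 3 higher and 1 lower of 8, beside 27.5% and 25.3% of all genes, with ICMT at -0.47, FDPS at 0.32 and FNTA at 0.26, but with library totals alone 0 were higher and 3 lower. IL1b called FNTA (0.31) and ZMPSTE24 (0.30) higher, EV-TNF called 0 by edgeR, and EV-IL1b called ICMT lower (-0.13). C5a called 2 higher and 0 lower, beside 11.8% and 10.8% of all genes. Epinephrine called 1 higher and 2 lower, beside 13.5% and 11.8%. EV-Epinephrine called 0 higher and 2 lower, beside 9.12% and 10.5%.

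The response in the gene cluster was set beside that of its neighbours. Within 500 kb of the stretch from GBP3 to the pseudogene GBP1P1, which lies beyond GBP5, are 10 other protein-coding genes, of which 7 met the filter. TNF called 6 of these 7 higher, beside 27.5% of all genes, with log2 fold changes of 0.23 to 0.91 (3 of 7 with library totals alone), all below the 2.24 of GBP2, the smallest of the members. The nearest tested genes were RBMXL1 at 0.45 on the GBP3 side and LRRC8B at 0.64 (not called) beyond GBP5. With IL1b, 3 of the 7 were higher and 1 lower (3 and 2 with library totals alone), beside 24% and 22.6% of all genes. There LRRC8B (0.99) lay above GBP2 (0.46) and GBP3 (0.66). In EV-TNF and in EV-IL1b none of the 7 was higher, and GTF2B (-0.53 and -0.61) and LRRC8C (-0.17 in both) were lower. This window was chosen after results were known.

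**Figure D5:**
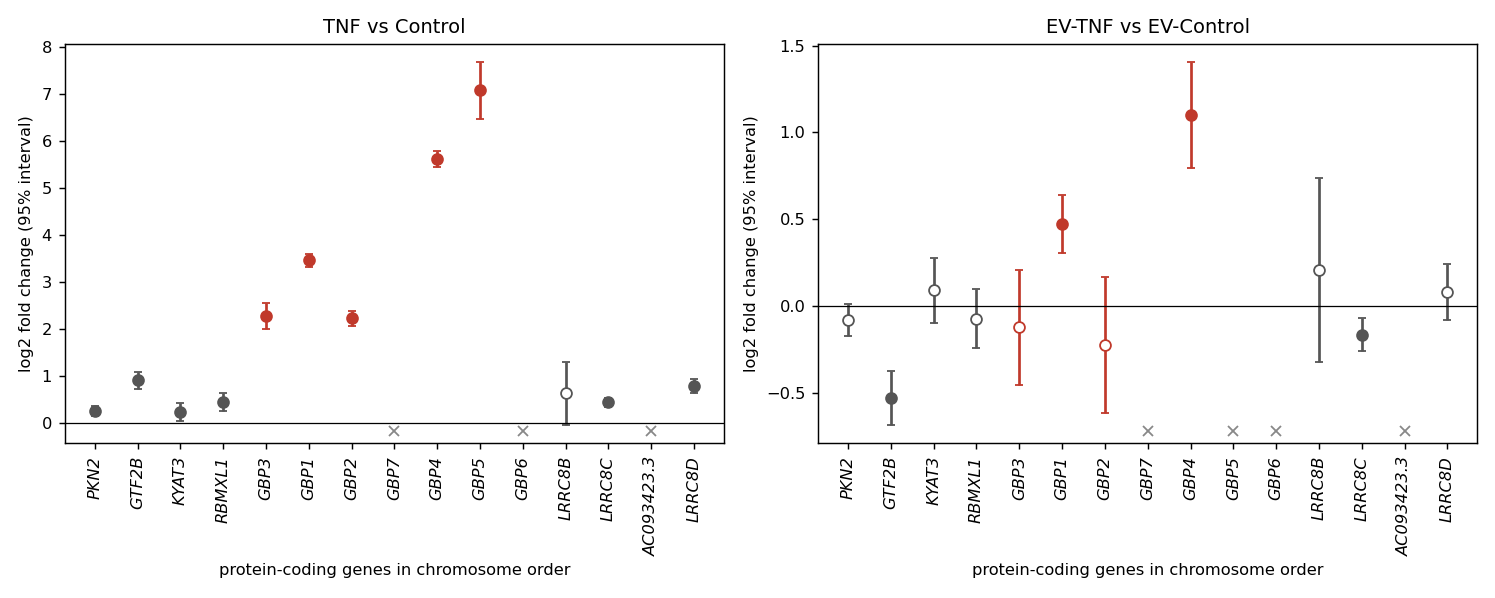
Log2 fold change with its 95% interval for protein-coding genes in chromosome order around the GBP genes (red), for TNF vs Control and EV-TNF vs EV-Control on different axes. Filled points passed, open points did not, and crosses at the foot mark genes not tested; in the left panel every GBP gene tested lies above every other gene, and in the right panel GBP1 and GBP4 are the 2 filled points above 0.

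Likeness to the members was measured as Pearson's r of the group mean log2 CPM over the 10 groups, among 1034 genes that varied between groups, as a description in which all genes share the libraries and the TNF group weighs heavily. GBP1 was most like BLZF1 (r = 0.996), GBP4 (0.992) and the DNA repair gene NBN (0.990). For GBP4 the 3 highest were APOL2, TAP1 and the adaptor MYD88 (0.995, 0.995 and 0.994), and for GBP5 PHF11, TYMP and IFI35 (0.995, 0.993 and 0.990). GBP2 was most like FSTL3 (0.985), LEISA1 and JAK3 (both 0.979), and GBP3 most like MGLL (0.993), FSTL3 (0.992) and STAT5A (0.990). Between members r ran from 0.869 (GBP2 with GBP5) to 0.992 (GBP1 with GBP4). Over the 30 libraries in place of the groups, 9 of these 15 genes remained among the 3 highest of their member, and 14 did with a prior count of 0.5.

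Some reads of the members may be shared. GBP2 and GBP7 overlap in 621 exonic bases on the same strand, GBP4 overlaps the antisense gene AC099063.4 in 138 exonic bases and GBP5 overlaps AC099063.1 in 324. The share of 50-base stretches that also occur in another gene was 9.62% for GBP1, 10.2% for GBP2, 4.76% for GBP3, 4.03% for GBP4 and 0.396% for GBP5. Whether counting used strand is not given in the sources used here, so reads from a member and its antisense partner cannot be told apart.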

How the data were processed

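RNA-seq gene counts of 30 hCMEC/D3 libraries were used. The values are whole-number read counts per gene that the authors deposited without normalization. Per the submitters' processing notes STAR, FastQC, DESeq2, R 4.4.1 and the hg38 build were used, with no role or order; the counting program, the annotation release and the use of strand are not given in the sources used here. Of 63147 lines, 4 without a gene ID (at most 0.00164% of a library's counts), 2 genes without counts and 3 repeated IDs left 63138 genes.

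Genes were filtered with filterByExpr, scaled with TMM and tested with edgeR 4.0.16 (quasi-likelihood, R 4.3.3, limma 3.58.1), with Benjamini-Hochberg adjustment over all genes tested and a threshold of 0.05. The 15 direct and the 15 vesicle libraries were fitted separately. A fit of all 30 gave EV-Control against Control and the interactions. This makes 14 comparisons of 5 members. SE is the log2 fold change over the root of F, and intervals are 95% from the t distribution. Exact intervals of count ratios, and floors of 3 counts, cover counting error only, since reads are not independent molecules. Library sizes scaled with TMM factors put 1 count at 0.0459 to 0.0668 CPM.

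The members and gene lists were chosen with earlier results of these data known. Named list genes were IRF1, IFNGR1 and CASP4 and up to 3 per list with the largest change among those past the threshold and at 1 CPM or more; some listed genes are not reported here. Groups came from the labels. Alternatives were RLE factors, library totals alone, other low-count filters, DESeq2 1.42.0, a fold threshold, a replicate block, other sets of libraries and leaving out each library. Counts of list and neighbour genes under other scalings, without replicate 1 of EV-Control and without replicate 3 of Epinephrine were added after seeing the data.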

Additional observations from a re-analysis of the deposited data

Results flagged for a closer look

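Of 20 interactions of the 5 members, 12 passed the threshold in the fit of all 30 libraries (edgeR, adjusted over all genes), which means that the response to vesicles differed from the direct response to the same stimulus. Of all genes tested, 44.7% passed for TNF, 35.2% for IL1b, 11.9% for C5a and 24.2% for epinephrine. Values are log2 differences, the vesicle response minus the direct response. For TNF they were -2.99 for GBP1 (SE 0.12), -2.46 for GBP2 (SE 0.20), -2.41 for GBP3 (SE 0.21), -4.51 for GBP4 (SE 0.18) and -5.76 for GBP5 (SE 1.0), the last resting on 8 counts in EV-Control and 7 in Control.

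For IL1b the differences were -0.67 for GBP1 (SE 0.12), -0.86 for GBP2 (SE 0.21), -0.79 for GBP3 (SE 0.22), -0.63 for GBP4 (SE 0.17) and -2.38 for GBP5 (SE 0.91). Over the settings run, with edgeR or DESeq2, the GBP2 value lay between -1.03 and -0.57, with an adjusted p of up to 0.049. The GBP5 value was -1.03 without replicate 1 of EV-Control and was then not called (edgeR adjusted p = 0.645). For epinephrine GBP2 had -0.80 (SE 0.21) and GBP4 0.82 (SE 0.19). Across the settings, with edgeR or DESeq2, the adjusted p reached 0.0752 for GBP2 and 0.0151 for GBP4. The GBP2 interaction was thus not called in every setting. Among the interactions that passed, epinephrine was the stimulus for which members had opposite signs. EV-Epinephrine was above EV-Control in GBP4 and below it in GBP2. That GBP2 call was lost when any single EV-Epinephrine library was left out, and with the replicate block (edgeR adjusted p = 0.0768). EV-IL1b had the same signs over EV-Control, with log2 fold changes of 1.06 for GBP4 and -0.41 for GBP2. There GBP4 was called and GBP2 was not (edgeR adjusted p = 0.181). Vesicle amounts are not given in the sources used here, so the sizes of the direct and vesicle responses are not matched by dose, and the part of dose in these differences was not tested.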

How the results depend on the processing

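The number of members past the threshold stayed within 1.5 times its main value in 202 of the alternative settings and moved in 27. All 5 members were called for TNF under every setting run. With a log2 fold change over 1 as a second threshold, 3 members were called for IL1b, 0 for Epinephrine, 1 for EV-TNF, 1 for EV-IL1b, 0 for EV-Epinephrine, 1 for the IL1b interaction and 0 for the Epinephrine interaction, since that threshold is stricter by construction. Epinephrine called 0 with RLE factors, with a mean of at least 50 counts, in the fit of all 30 libraries and in the fit of only the groups compared, and 2 with no low-count filter. A fit of only the groups compared called 1 member for C5a, 1 for EV-Epinephrine and 1 for the Epinephrine interaction. Library totals alone called 1 for EV-Control against Control, and no low-count filter called 1 for the C5a interaction; the cause was not tested. Leaving out 1 library at a time gave 0 to 1 members for C5a, 0 to 2 for Epinephrine, 2 to 3 for EV-IL1b, 0 to 2 for EV-Epinephrine, 0 to 1 for EV-Control against Control and 4 to 5 for the IL1b interaction.

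Single log2 fold changes changed sign in 18 fits, all of them fits that left out a library, and none of these values had been called. The ranges for C5a were -0.13 to 0.042 for GBP2 and -0.041 to 0.18 for GBP3, and for Epinephrine -0.33 to 0.87 for GBP5. In EV-TNF, GBP2 ranged from -0.38 to 0.075. In EV-C5a the ranges were -0.33 to 0.13 for GBP2, -0.19 to 0.039 for GBP3 and -0.062 to 0.093 for GBP4, and in EV-Epinephrine GBP3 ranged from -0.19 to 0.041. EV-Control against Control gave -0.023 to 0.077 for GBP1, -0.18 to 0.27 for GBP2 and -1.10 to 0.84 for GBP5. The C5a interaction gave -0.28 to 0.17 for GBP2 and -1.43 to 0.52 for GBP5, and the Epinephrine interaction -0.016 to 1.92 for GBP5.

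The replicate numbers gave no clear pairing of the libraries. Deviations of same-numbered libraries correlated between -0.11 and 0.10 in the direct set and between -0.13 and 0.08 in the vesicle set. Of 30 pairs in each set, 8 and 15 correlated best with their own number among the 3 libraries of the other group. Whether the vesicle libraries were weakly paired was not tested. With the replicate block EV-Epinephrine called 1 member in place of 2 (GBP2 -0.59, edgeR adjusted p = 0.0768), and no other count of members moved. Depth limits GBP5, with 0 to 18 counts in each vesicle library.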

Other observations

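Ratios between members within a library were chosen after their values were seen, and are given as descriptions. GBP1 stood at 4.34 ± 0.558 times the CPM of GBP2 in Control (SD, n = 3), at 10.1 ± 0.0429 in TNF and at 6.99 ± 0.869 in IL1b, and in the vesicle groups at 4.29 ± 0.957 in EV-Control, 6.65 ± 0.464 in EV-TNF, 7.59 ± 1.33 in EV-IL1b and 5.84 ± 0.255 in EV-Epinephrine. The ratio does not depend on the scaling of libraries. GBP4 over GBP1 was 0.0534 ± 0.00814 in Control, 0.236 ± 0.00351 in TNF and 0.0778 ± 0.0028 in IL1b, and 0.041 ± 0.00476 in EV-Control, 0.0635 ± 0.00938 in EV-TNF, 0.0619 ± 0.00927 in EV-IL1b and 0.0664 ± 0.00935 in EV-Epinephrine. The C5a, Epinephrine and EV-C5a libraries overlapped their controls in both ratios, with GBP1 over GBP2 at 4.9 ± 0.324, 4.21 ± 0.0601 and 4.31 ± 0.588 and GBP4 over GBP1 at 0.0546 ± 0.00436, 0.0414 ± 0.00741 and 0.0452 ± 0.00493. With 3 libraries against 3 an exact two-sided permutation test cannot go below p = 0.1, which is 0.16 after adjustment over the 16 tests made, so none of these differences could pass.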
